A study of Mus musculus with 12 samples.

Results

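The levels of 9 genes that mark the inhibitory interneurons of the cerebellum were followed across 12 mice. The mice come from a study of spinocerebellar ataxia type 1 and of compounds directed at expanded CAG repeats in RNA. The genes are Gad1, Gad2, Slc32a1, Slc6a5, Kit, Sorcs3, Nxph1, Tfap2b and Lypd6, chosen by name and found by their Ensembl identifiers, 9 genes of the 55401 in the count tables. All 9 passed the filter on low counts, which left 19378 genes for testing. RNA was taken from whole cerebellum, 1 library per mouse, in 3 groups of 4. Wild-type mice given dimethyl sulfoxide (DMSO) are called WT DMSO here. Heterozygous knock-in mice, Atxn1154Q/2Q in the labels, carry 1 Atxn1 allele with an expanded glutamine repeat. They received either DMSO (Het DMSO) or the compound Hit 2 (Het Hit 2). Hit 2 was dissolved in DMSO at 25 mg/ml, and DMSO, which all 3 groups received, was kept under 4 ml/kg. Injections into the abdomen ran daily for 5 days, stopped for 2 days and ran for 5 more, from 18 to 20 weeks of age. No wild-type mice given Hit 2 are among the groups.

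Inhibitory interneurons of the cerebellum release GABA, and in part glycine, onto Purkinje cells, granule cells and each other. Stellate and basket cells lie in the molecular layer and Golgi cells in the granular layer. The enzymes encoded by Gad1 and Gad2 make GABA from glutamate, the Slc32a1 transporter loads GABA and glycine into synaptic vesicles, and the Slc6a5 transporter returns released glycine to glycinergic neurons such as Golgi cells. Purkinje cells and the inhibitory neurons of the cerebellar nuclei also use GABA, so Gad1, Gad2 and Slc32a1 are not particular to interneurons. Kit is a receptor tyrosine kinase of molecular layer interneurons whose ligand is made by Purkinje cells. Sorcs3 is a sorting receptor and Nxph1 a secreted partner of neurexins, and each marks a different class of molecular layer interneuron. Lypd6 encodes a small protein anchored to the outer cell membrane. Tfap2b encodes AP-2 beta, a transcription factor used in the development of these cells.

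Because 1 of the 9 genes encodes an AP-2 factor, the members' promoters were searched for the AP-2 letters GCCNNNGGC on both strands, in a window from 250 bases before to 50 bases after each annotated start (RefSeq, build GRCm38.p6). All 9 genes had an entry. The letters stood in the windows of Gad2, with 2 matches, and Kit, with 1, and in 16.5% of the 27025 promoters in the table. The stretch upstream of the first exon is shown for these genes, and for Gad1 as the second GABA-synthesizing gene, whose window held no match. The capitals mark the AP-2 letters, and a second match in Gad2 lies outside the stretch shown. A match is a string of letters and not a shown binding site.
Gad2, chr2:22622077-22622204, + strand: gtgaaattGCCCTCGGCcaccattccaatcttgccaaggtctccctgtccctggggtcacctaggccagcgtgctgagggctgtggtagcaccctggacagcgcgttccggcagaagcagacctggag
Kit, chr5:75574737-75574915, + strand: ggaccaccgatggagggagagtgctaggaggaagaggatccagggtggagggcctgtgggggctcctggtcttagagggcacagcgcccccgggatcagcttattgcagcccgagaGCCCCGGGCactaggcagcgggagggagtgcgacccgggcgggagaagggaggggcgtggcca
Gad1, chr2:70561879-70562041, + strand: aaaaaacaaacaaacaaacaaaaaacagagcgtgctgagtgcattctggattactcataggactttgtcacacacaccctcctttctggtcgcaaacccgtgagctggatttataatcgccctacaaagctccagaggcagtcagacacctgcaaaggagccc

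Libraries are named by animal number, 413, 425, 426 and 431 for WT DMSO, 409, 411, 420 and 429 for Het DMSO and 410, 421, 422 and 430 for Het Hit 2, and values below keep this order. In quality and marker genes, 3 of them stood apart. Depth ran from 15855751 to 45265719 reads assigned to genes, and levels below are in CPM, a gene's reads divided by that total after scaling it with TMM factors. Library 411 (Het DMSO) went against its tissue label: 8 Purkinje markers summed to 628 CPM there against 3084 to 7161 in the other 11 libraries, and 8 granule cell markers summed to 207 CPM against 4068 to 8806. Gabra6, a defining granule cell gene, was at 0.61 CPM in it and Pcp2, a defining Purkinje gene, at 0.56 CPM. A list of 8 midbrain genes summed to 175 CPM in library 411, with 7 of the 8 at 1 CPM or more, and to between 2.09 and 40.1 CPM elsewhere. Library 410 (Het Hit 2) held the next highest midbrain sum, 40.1 CPM, and the next lowest sums of both cerebellar lists, 3084 and 4068 CPM. Library 409 (Het DMSO) had 0.0795% of gene reads from mitochondrial genes against 1.85% to 2.81% in the others. Results are given for all libraries, with values without 409 and 411, or without 410 as well, beside many of them. Xist, expressed from the inactive X of females, was above 10 CPM in WT DMSO libraries 425 and 426 and in no knock-in library, so sex is unbalanced in both comparisons with WT DMSO.

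**Figure D1:**
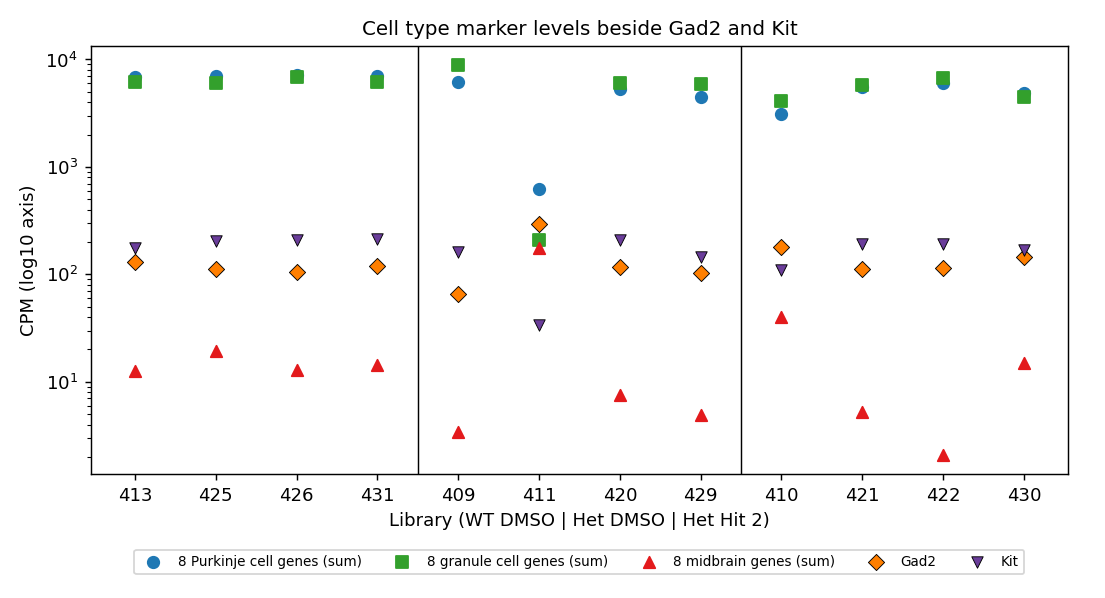
Summed CPM of 3 marker gene lists, and CPM of Gad2 and Kit, in each of the 12 libraries on a log10 axis, with lines between the groups. Library 411 sits lowest for the Purkinje list (628 CPM) and the granule cell list (207 CPM) and highest for the midbrain list (175 CPM).

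In WT DMSO cerebellum the 9 genes spanned a wide range of levels per length of exon. On the scale of CPM per kilobase of exon, the order of mean levels was Gad1 (47.6 ± 1.70, SD, n = 4), Slc32a1 (38.6 ± 1.84), Kit (22.5 ± 1.88), Gad2 (19.8 ± 1.77), Tfap2b (6.76 ± 0.28), Slc6a5 (4.91 ± 0.90), Sorcs3 (4.82 ± 0.34), Nxph1 (4.10 ± 0.50) and Lypd6 (3.56 ± 0.27). The WT ranges of Kit and Gad2 overlapped, as did those of neighbours from Slc6a5 down to Lypd6. The other neighbours in the order had separate ranges. Exon lengths came from the GRCm38 annotation, with all annotated exons of a gene merged, so they are not the lengths of single transcripts. The genes lie on chromosomes 2 (Gad1, Gad2, Slc32a1 and Lypd6), 7 (Slc6a5), 5 (Kit), 19 (Sorcs3), 6 (Nxph1) and 1 (Tfap2b).

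None of the 9 genes passed an adjusted p of 0.05 in any of the 3 comparisons, and the 4 knock-in mice given DMSO varied more than the wild-type mice, libraries 409 and 411 included. Between WT DMSO mice the coefficient of variation of the 9 genes ran from 3.57% (Gad1) to 18.4% (Slc6a5). Between Het DMSO mice it ran from 14.2% (Gad1) to 70.1% (Nxph1), and without 411 from 15.8% (Gad1) to 42.1% (Tfap2b), with Nxph1 at 19.0%. Without 409 and 411, which leaves 2 mice, it ran from 4.55% (Lypd6) to 29.8% (Sorcs3). Lypd6 and Gad2 (8.35%) were then below their WT values of 7.56% and 8.97%, and the remaining members were above theirs. In edgeR's quasi-likelihood test with Benjamini-Hochberg adjustment over all 19378 genes, the members called were 0 of 9 for Het DMSO versus WT DMSO (background 0.00516% of genes called), 0 of 9 for Het Hit 2 versus Het DMSO (background 0%) and 0 of 9 for Het Hit 2 versus WT DMSO (background 0.00516%). At an unadjusted p under 0.05 the members passing were also 0 of 9 in each, against 7.11%, 1.55% and 1.71% of all genes. DESeq2 called 0 of 9 in each comparison too, where it called 43, 0 and 24 of the 19378 genes in the same order. In whole tissue, fewer cells of a type and less RNA per cell cannot be told apart.

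**Figure D2:**
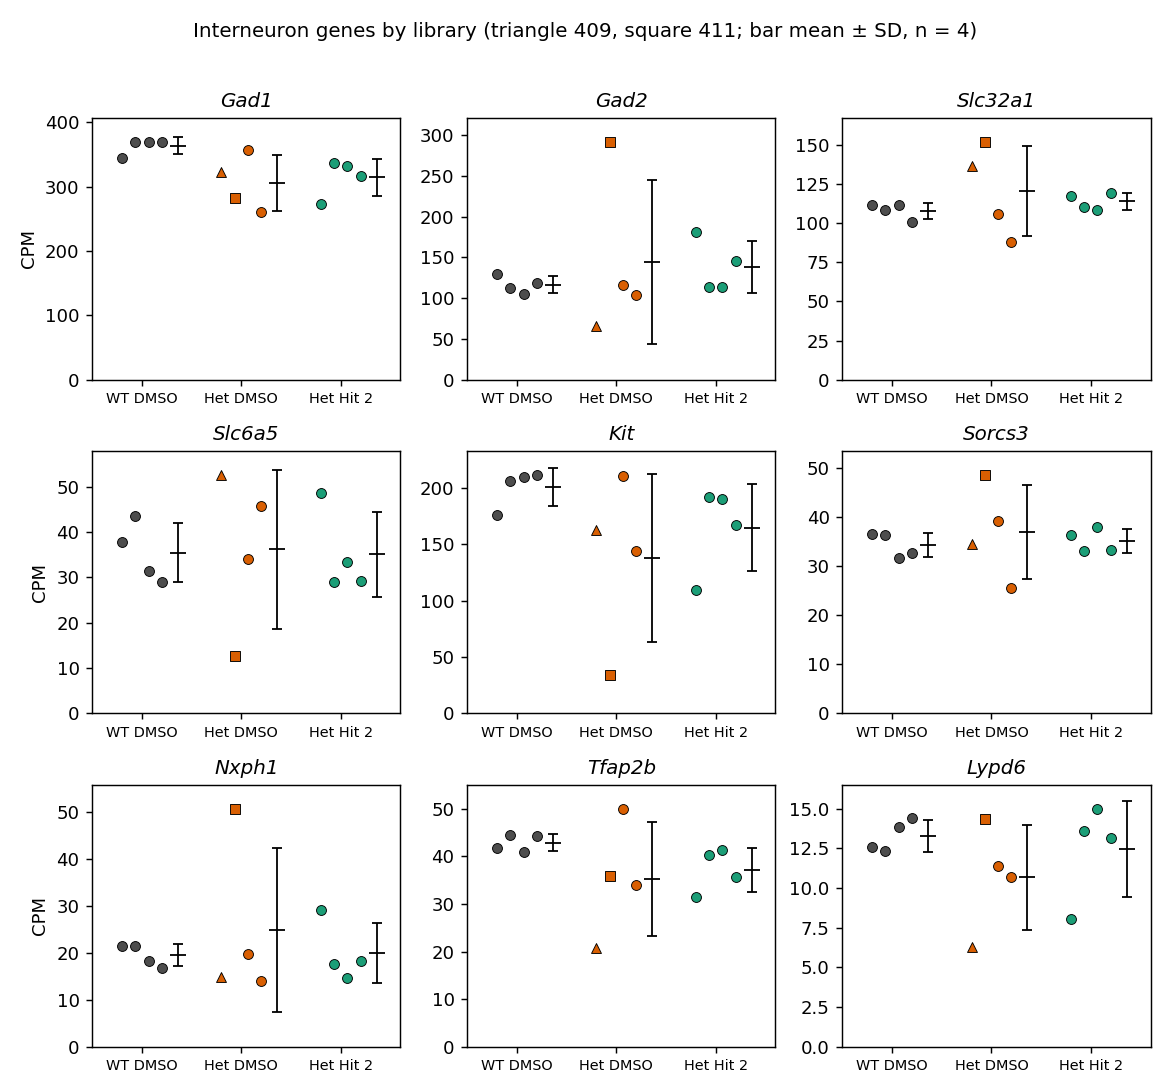
CPM of each of the 9 genes in every library (points; the triangle is library 409 and the square library 411), with the mean and SD of each group of 4 as a bar. Gad1 in the Het Hit 2 mice lies wholly below the WT DMSO mice, and library 411 is the highest or lowest Het DMSO point for Gad2, Kit, Nxph1 and Slc6a5.

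Gad1, which encodes the GABA-synthesizing enzyme GAD67, had the tightest WT values of the 9 genes. Its level in the WT DMSO mice was 344, 370.2, 369.9 and 370.0 CPM. In the Het DMSO mice it was 323, 282, 358 and 260.1 CPM, and in the Het Hit 2 mice 274, 337, 332 and 317 CPM. Every Het Hit 2 mouse was below every WT DMSO mouse, and 1 Het DMSO mouse, 420, fell inside the WT range. Gad1 was the 1 member of 9 whose groups did not overlap in that comparison, where 3.42% of all genes were lower without overlap and 2.9% higher. No member was without overlap in Het DMSO versus WT DMSO (background 2.45% lower and 1.94% higher) or in Het Hit 2 versus Het DMSO (0.392% and 0.635%).

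The group means of Gad1 were 364 ± 13.0 CPM (SD, n = 4) in WT DMSO, 306 ± 43.4 CPM in Het DMSO and 315 ± 28.6 CPM in Het Hit 2. The edgeR log2 fold change was -0.25 (SE 0.13, 95% interval -0.52 to 0.03, adjusted p = 0.616) for Het DMSO versus WT DMSO and -0.21 (SE 0.13, -0.48 to 0.07, adjusted p = 1.00) for Het Hit 2 versus WT DMSO. Between the knock-in groups it was 0.04 (SE 0.13, -0.23 to 0.32, adjusted p = 0.940). The exact two-sided permutation test over mice gave p = 0.0286 for Het Hit 2 versus WT DMSO, the smallest that 4 against 4 can give, and p = 0.0571 for Het DMSO versus WT DMSO. There were 27 such tests, and their p-values are not adjusted. Without libraries 409 and 411 the values versus WT DMSO were -0.25 (edgeR adjusted p = 0.908) and -0.22 (adjusted p = 0.536), and without 410 as well they were -0.24 and -0.15.

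Gad1 overlaps the antisense gene Gad1os, and 0.302% of the reads over Gad1 lay on the other strand, which the counts used here leave out. Gad1 is also made by Purkinje cells, whose 8 marker genes all had negative log2 fold changes in both knock-in groups against WT DMSO, and summed to 6918 to 7161 CPM in WT DMSO, 628 to 6223 CPM in Het DMSO and 3084 to 6017 CPM in Het Hit 2, with none at 0 reads. No gene of that list passed the adjusted threshold, with or without 409 and 411. Without those 2 libraries, edgeR's unadjusted p was under 0.05 for 6 of 8 genes (Het DMSO) and 8 of 8 (Het Hit 2), each versus WT DMSO. Of the 20105 genes tested in that fit, 1172 and 1910 passed. The part of Purkinje RNA in the Gad1 values was not tested.

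Gad2, which encodes the GABA-synthesizing enzyme GAD65 found mainly at nerve terminals, had a pattern unlike that of Gad1. Its level was 129, 112, 105 and 119 CPM in the WT DMSO mice. In the Het DMSO mice it was 66.2, 292, 117 and 104 CPM, and in the Het Hit 2 mice 181, 113, 114 and 145 CPM. Libraries 409 and 411 of the same group were thus the lowest and the highest of all 12, and the groups overlapped throughout. By edgeR the log2 fold change was 0.32 (SE 0.36, adjusted p = 0.729) for Het DMSO versus WT DMSO, which turned to -0.09 without 409 and 411. The value for Het Hit 2 versus Het DMSO was -0.07 (SE 0.36), which turned to 0.32 without 409 and 411 and was 0.17 without 410 as well.

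The ratio of Gad2 to Gad1 reads lay outside the WT range in libraries 409, 411, 410, 430 and 429. It ran from 28.3% to 37.6% in the WT DMSO mice, and was 20.5% in library 409, 103% in 411, 65.9% in 410 and 45.8% in 430. The remaining 4 knock-in mice had ratios of 32.6% to 39.8%, of which the highest, in 429, was also above the WT range. A list of 10 brainstem genes summed to 280.1, 100.3 and 48.9 CPM in 411, 410 and 430, against 0.299 to 44.3 CPM in the other 9 libraries. Nearly all of the sum in 411 and 430 was Slc17a6, a glutamate transporter gene also expressed in midbrain and deep nuclear neurons, at 278 and 48.5 CPM. The other 9 genes of the list did not follow it, with 2.17 CPM in 411, 15.8 in 410 and 0.375 in 430, and 16.5 CPM in WT DMSO 425. Slc17a6 was picked for naming after its values were seen. The part of other brain regions in these ratios was not tested.

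Slc32a1, the vesicular transporter for GABA and glycine, was the steadiest of the members in the Hit 2 mice. Its level was 111, 108, 111 and 100.4 CPM in WT DMSO, 136, 152, 106 and 88.2 CPM in Het DMSO, and 118, 110.4, 108 and 119 CPM in Het Hit 2. The Het DMSO mice held both the 2 highest values and the lowest. For Het DMSO versus WT DMSO, edgeR gave a log2 fold change of 0.16 (SE 0.15, adjusted p = 0.679), or -0.16 without 409 and 411. For Het Hit 2 versus Het DMSO, the value was -0.08 (SE 0.15), and 0.23 (SE 0.08, unadjusted p = 0.0195, edgeR adjusted p = 0.983) without 409 and 411.

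Slc6a5, the glycine transporter of glycinergic neurons, had the widest WT spread of the 9 genes. Its level was 37.7, 43.5, 31.4 and 29.0 CPM in WT DMSO, 52.5, 12.6, 33.9 and 45.6 CPM in Het DMSO, and 48.6, 29.0, 33.3 and 29.1 CPM in Het Hit 2. Library 411 was the lowest of the 12 and 409 the highest, and all groups overlapped. The group means were close, at 35.4 ± 6.51, 36.2 ± 17.5 and 35.0 ± 9.30 CPM (SD, n = 4), and the log2 fold changes were 0.03 (SE 0.35) for Het DMSO versus WT DMSO, -0.05 for Het Hit 2 versus Het DMSO and -0.02 for Het Hit 2 versus WT DMSO. With 409 and 411 left out these became 0.16, -0.19 and -0.03, and with 410 left out as well 0.17, -0.38 (SE 0.18, unadjusted p = 0.0545, edgeR adjusted p = 0.921) and -0.22.

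Kit, the receptor tyrosine kinase of molecular layer interneurons, had the largest negative log2 fold change of the 9 members in Het DMSO versus WT DMSO with all libraries, where 411 lay far below the other 3. Without 409 and 411, those of Lypd6 (-0.28), Gad1 (-0.25) and Nxph1 (-0.23) were more negative than that of Kit. Its level was 176, 206, 209.7 and 211 CPM in the WT DMSO mice. In the Het DMSO mice it was 162, 34.0, 210.4 and 144 CPM, and in the Het Hit 2 mice 109, 192, 190.0 and 167 CPM. Of all 12, library 411 was the lowest and 410 the next lowest, the same 2 libraries that were lowest for Purkinje and granule cell markers. edgeR gave a log2 fold change of -0.55 (SE 0.40, 95% interval -1.41 to 0.32, adjusted p = 0.634) for Het DMSO versus WT DMSO and -0.19 (SE 0.22) without 409 and 411. For Het Hit 2 versus WT DMSO it was -0.29 (SE 0.40), -0.30 (SE 0.18) without 409 and 411, and -0.14 (SE 0.12) when 410 was left out as well. Mast cells also express Kit, and 5 mast cell genes, Cpa3, Fcer1a, Mcpt4, Ms4a2 and Tpsb2, summed to 0 to 0.105 CPM in WT DMSO, 0.0493 to 0.209 CPM in Het DMSO and 0.0690 to 0.232 CPM in Het Hit 2. Their part in the Kit values was not tested.

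Sorcs3 and Nxph1, which mark different molecular layer interneurons, were both highest in library 411. Sorcs3 was at 36.5, 36.4, 31.8 and 32.8 CPM in WT DMSO, 34.5, 48.6, 39.2 and 25.6 CPM in Het DMSO, and 36.4, 33.1, 38.0 and 33.3 CPM in Het Hit 2. Nxph1 was at 21.5, 21.5, 18.2 and 16.8 CPM in WT DMSO, 14.9, 50.6, 19.7 and 14.0 CPM in Het DMSO, and 29.1, 17.6, 14.7 and 18.2 CPM in Het Hit 2. Library 410 was second highest for Nxph1, and the groups overlapped for both genes. For Het DMSO versus WT DMSO the log2 fold change of Sorcs3 was 0.10 (SE 0.17) and that of Nxph1 0.35 (SE 0.37), and both turned negative without 409 and 411, to -0.10 and -0.23. For Het Hit 2 versus Het DMSO, Nxph1 had -0.32 (SE 0.38), which was 0.23 without 409 and 411 and -0.003 without 410 as well.

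Tfap2b, the AP-2 beta gene, was lower on average in both knock-in groups without passing a test. Its level was 41.8, 44.4, 41.0 and 44.4 CPM in WT DMSO, 20.7, 36.0, 50.03 and 34.0 CPM in Het DMSO, and 31.4, 40.2, 41.3 and 35.7 CPM in Het Hit 2. Library 409 was the lowest and 420 the highest, both Het DMSO, and 3 of the 4 Het Hit 2 mice lay below the WT range. In edgeR the log2 fold changes were -0.29 (SE 0.21, adjusted p = 0.634) for Het DMSO and -0.21 (SE 0.21, adjusted p = 1.00) for Het Hit 2, each versus WT DMSO. The exact permutation p for the latter was 0.0571. Leaving out 1 library at a time, the first value ran from -0.51 (without 420) to -0.11 (without 409) and the second from -0.26 to -0.14. Without 409 and 411 the first value was -0.04, and without 410 as well the second was -0.13.

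Lypd6, the membrane-anchored protein gene with the lowest level per kilobase of the 9, was at 12.6, 12.3, 13.8 and 14.4 CPM in WT DMSO, 6.31, 14.3, 11.4 and 10.7 CPM in Het DMSO, and 8.05, 13.6, 15.0 and 13.1 CPM in Het Hit 2. Libraries 409 and 410 were the lowest, and the groups overlapped. From edgeR came a log2 fold change of -0.32 (SE 0.24, adjusted p = 0.640) for Het DMSO versus WT DMSO and 0.23 (SE 0.25, adjusted p = 0.898) for Het Hit 2 versus Het DMSO. Leaving out 1 library at a time, the first value ran from -0.49 (without 411) to -0.14 (without 409) and the second from 0.04 to 0.38. Without 409 and 411 these were -0.28 (unadjusted p = 0.206) and 0.18 (unadjusted p = 0.409). With 410 also left out, an exclusion chosen after seeing the data, they were -0.27 (unadjusted p = 0.0327, adjusted p = 0.575) and 0.34 (unadjusted p = 0.0144, adjusted p = 0.921).

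**Figure D3:**
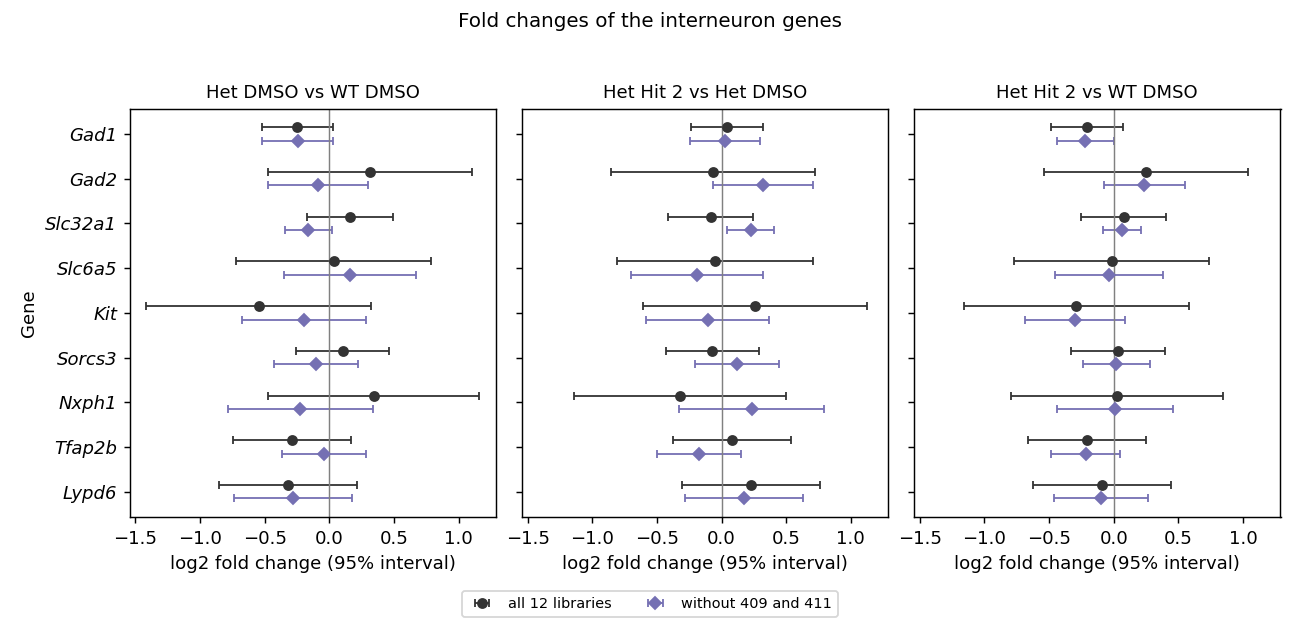
Log2 fold change of each gene with its 95% interval in the 3 comparisons, for all 12 libraries (circles) and without 409 and 411 (diamonds). In the fit of all libraries every interval crosses 0, and the intervals are widest for Kit, Nxph1, Gad2 and Slc6a5.

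As a group the 9 genes had a median log2 fold change close to that of all genes tested. This median was 0.03 for Het DMSO versus WT DMSO (all genes 0.05), -0.05 for Het Hit 2 versus Het DMSO (all genes -0.04) and -0.02 for Het Hit 2 versus WT DMSO (all genes 0.02). Positive and negative values were split 5 to 4, 4 to 5 and 4 to 5. Without 409 and 411 Het DMSO is 2 mice, 420 and 429, and the members' median log2 ratio to the WT mean was 0.01 in 420 and -0.33 in 429. The splits were then 1 to 8, 6 to 3 and 4 to 5, and the medians were -0.16, 0.12 and -0.03, where those of all genes were -0.01, 0.01 and 0.01. Without 410 as well, the medians were -0.16, 0.09 and -0.13. The summed level of the 9 genes, of which Gad1 has the highest CPM, was 911 to 955 CPM in WT DMSO, 725 to 945 CPM in Het DMSO and 835 to 886 CPM in Het Hit 2, and the last group did not overlap WT DMSO. Among the single members only Gad1 was without overlap in that comparison. The Purkinje sums given above were also lower in Het Hit 2 without overlap. So was the sum of 6 astroglia markers (779 to 1097 CPM, and 1224 to 1332 CPM in WT DMSO). Among those 6, Slc1a3 and Gdf10 did not overlap and the rest did. The sum of 10 genes of the receiving side of the synapse was lower likewise (2147 to 2199 CPM, and 2320 to 2525 CPM in WT DMSO). The same held for 8 forebrain markers (64.3 to 95.7 CPM, and 118 to 148 CPM in WT DMSO), a sum that was mostly Ppp1r1b. The part of any of these lists in the members' sum was not tested. The comparisons share groups, so their values are not independent of each other.

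Within the 3 libraries that stood apart, the members differed in direction. As log2 ratios to the WT mean, Nxph1 was at 1.38 and Gad2 at 1.33 in library 411, with Kit at -2.56 and Slc6a5 at -1.47. Library 409 had Slc6a5 at 0.59, and Gad2, Tfap2b and Lypd6 at -0.81, -1.05 and -1.06. Library 410 had Gad2 at 0.64 and Kit and Lypd6 at -0.88 and -0.71. In those 3 libraries 3 or 4 members were past 1.5-fold, and in the other 9 libraries none was. The share of all genes past 1.5-fold was 52.6% in 409, 45.7% in 411 and 23.0% in 410, against 3.85% to 13.9% in the rest. Library 429 had 8 of 9 members below the WT mean, with Slc6a5 above it at 0.38.

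**Figure D4:**
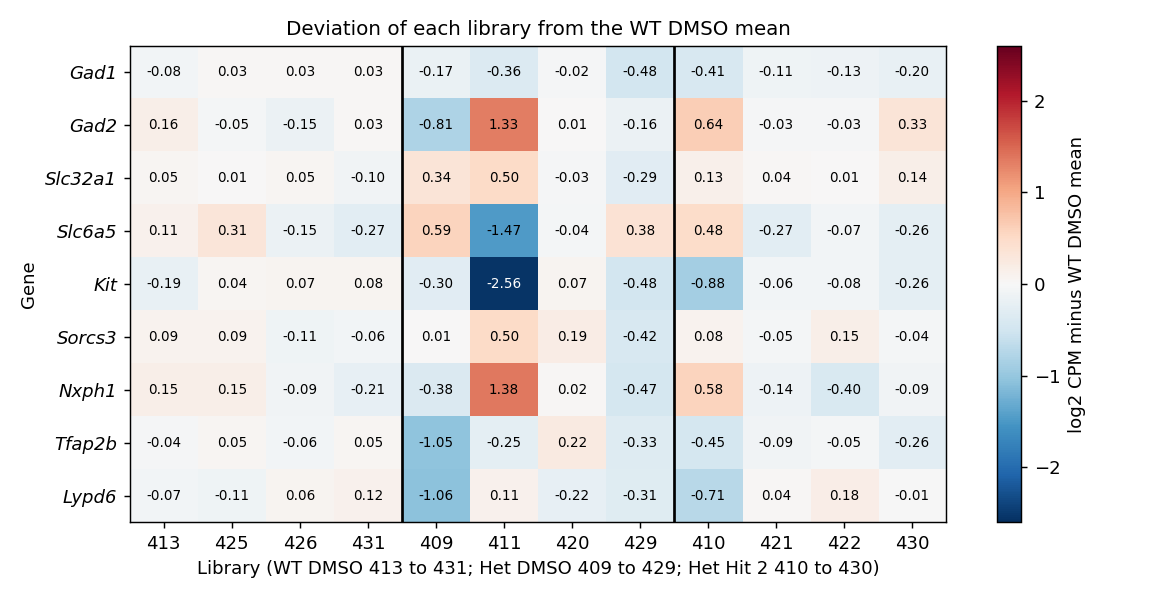
Log2 ratio of each gene in each library to its WT DMSO mean. Libraries 409, 410 and 411 hold every value past 1.5-fold, in both directions, and Kit in 411 is the lowest at -2.56.

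In library 409 the deviations of genes went with base composition. Across 19346 genes with a transcript sequence, the Spearman correlation of GC content with the deviation of a library from the median of the 10 libraries other than 409 and 411 was 0.70 in 409, 0.07 in 411 and between -0.26 and 0.24 in the others. It is a description across genes of 1 library, which share its depth and preparation. The tenth of genes lowest in GC had a median deviation of -1.77 in 409 and the tenth highest 0.65. Among the members, Lypd6 (43.9% GC), Gad2 (44.1%) and Tfap2b (46.3%) deviated by -1.02, -0.80 and -0.99, and Slc32a1 (61.9%) by 0.32. The other members lay between 46.7% and 50.1% GC and deviated by -0.29 (Nxph1), -0.07 (Gad1), 0.64 (Slc6a5), -0.23 (Kit) and -0.01 (Sorcs3). The part of base composition in the members' values in 409 was not tested.

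**Figure D5:**
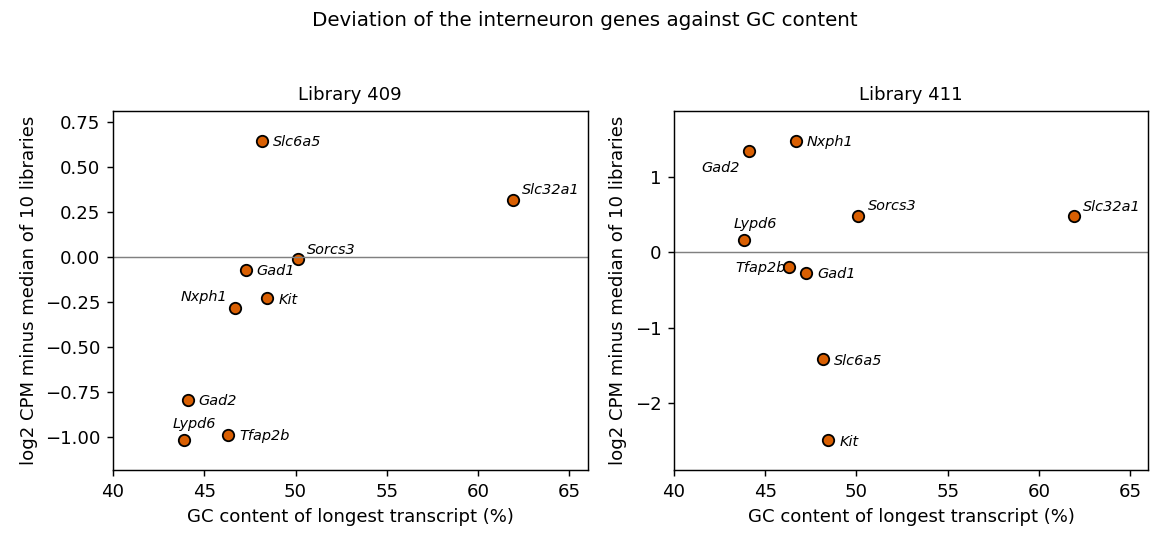
Deviation of each of the 9 genes from the median of the 10 other libraries (log2) against the GC content of its longest transcript (percent), in libraries 409 and 411. In 409 the 3 lowest points are Lypd6, Tfap2b and Gad2, all under 47% GC. In 411 the highest and lowest points, Nxph1 and Kit, are at 46.7% and 48.5% GC.

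Genes around the inhibitory synapse gave no call in the edgeR fit of all libraries. Of 6 genes of GABA and glycine uptake and breakdown, 10 of the receiving side of the synapse and 13 tested of 14 other interneuron genes, 0 passed the adjusted threshold in each comparison. At an unadjusted p under 0.05 there was 1 gene, Gabbr2, for each knock-in group versus WT DMSO and 0 between the knock-in groups, out of 29 tested, where 7.11% (Het DMSO versus WT DMSO), 1.71% (Het Hit 2 versus WT DMSO) and 1.55% of all genes passed. The median log2 fold changes for Het DMSO versus WT DMSO were 0.23, 0.08 and 0.15, and -0.04, -0.16 and -0.15 without 409 and 411. Their medians for Het Hit 2 versus Het DMSO were -0.22, -0.21 and -0.18, or 0.05, 0.06 and 0.07 without 409 and 411, and for Het Hit 2 versus WT DMSO 0.05, -0.06 and 0.01. In the fit of all libraries, the gene with the smallest unadjusted p of these lists was Gabbr2, a subunit of the metabotropic GABA-B receptor. Its level was 346, 407, 425 and 421 CPM in WT DMSO, 339, 258, 312 and 259 CPM in Het DMSO, and 239.8, 317, 293 and 322 CPM in Het Hit 2. All 8 knock-in mice were below all 4 wild-type mice, and in each comparison taken alone 2.45% (Het DMSO) and 3.42% (Het Hit 2) of all genes were lower than WT DMSO without overlap. The share of all genes below WT DMSO in both groups at once was not computed. The Purkinje list was lower in the same way, and its part in this was not tested. For Gabbr2 the log2 fold change was -0.45 (SE 0.14, unadjusted p = 0.00761, edgeR adjusted p = 0.616) for Het DMSO and -0.45 (SE 0.14, unadjusted p = 0.00818, edgeR adjusted p = 1.00) for Het Hit 2, each versus WT DMSO, and 0.01 between the knock-in groups. With libraries weighted by quality in limma, the adjusted p of these 2 values was 0.0477 and 0.0474. That setting called 98 (Het DMSO) and 221 (Het Hit 2) of all 19378 genes versus WT DMSO, where the main edgeR fit called 1 in each. Gabbr1, which encodes the partner subunit, had the smaller unadjusted p once 409 and 411 were left out. Its log2 fold change was then -0.31 (SE 0.06, unadjusted p = 0.000623, edgeR adjusted p = 0.187) for Het DMSO and -0.24 (SE 0.05, unadjusted p = 0.000782, edgeR adjusted p = 0.0946) for Het Hit 2, each versus WT DMSO. With all libraries the values were 0.01 (SE 0.15) and -0.23 (SE 0.15), and 409 and 411, at 765 and 702 CPM, were the 2 highest of the 12 for Gabbr1. Gabbr1 passed with quality weights in limma for Het Hit 2 versus WT DMSO (adjusted p = 0.0400).

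Other genes named by the same rule passed no adjusted test in edgeR. Slc6a11, the astrocyte GABA transporter GAT-3, had 1.73 (SE 0.95) for Het DMSO versus WT DMSO, Klhl1, an actin-binding protein gene, 1.88 (SE 1.04), and Glra3, a glycine receptor subunit, 2.59 (SE 1.56). All of these were highest in library 411, at 595, 37.8 and 37.6 CPM, and next in 410, at 225, 11.3 and 11.9 CPM, and their fold changes turned to -0.28, -0.67 and -1.30 without 409 and 411. Aldh5a1, which completes GABA breakdown, had 0.29 (SE 0.17) and Gjd2, the neuronal gap junction gene, 0.42 (SE 0.23), and these were -0.03 and 0.03 without 409 and 411. For Het Hit 2 versus Het DMSO the values were -0.26 for Aldh5a1, -0.23 for Abat (GABA transaminase), -0.36 for Slc12a5 (the neuronal chloride exporter KCC2), -0.24 for Gabbr1, -0.29 for Gjd2 and -0.28 for Grm2 (a glutamate receptor of Golgi cells). All 6 turned positive without 409 and 411, at 0.05, 0.04, 0.02, 0.07, 0.08 and 0.18. With 410 left out as well, Abat was negative again at -0.06 and the rest stayed positive. The values for Het Hit 2 versus WT DMSO were 0.85 for Slc6a11, 0.10 for Abat, 1.15 for Htr2a (a serotonin receptor) and -0.39 for Pvalb (parvalbumin, made by Purkinje cells and molecular layer interneurons). Leaving out 409 and 411 gave 0.84, 0.09, 1.12 and -0.40 (unadjusted p = 0.0116, edgeR adjusted p = 0.311 for Pvalb), and with 410 left out as well 0.13, -0.01, 0.08 and -0.27.

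Likeness to the members was measured by Pearson's r between a gene's log2 CPM and the mean of the 9 centred members, among 12446 genes. Over the 12 libraries the 4 most alike were Fam162a (r = 0.90), Dach1 (0.84), S100pbp (0.82) and Ddit3 (0.82). Over the 10 libraries without 409 and 411 the 5 most alike were Tm6sf1 (0.92), St3gal3 (0.91), Dach1 (0.91), Kcns2 (0.91) and Mapkapk2 (0.90), and of the genes named here Dach1 alone stood in both sets. These are the highest of 12446 values, picked in the same libraries, so their size cannot be read as a tested link. For comparison, the r of a member with the mean of the other 8 over the 12 libraries ran from -0.62 (Slc6a5) to 0.66 (Tfap2b). It was also negative for Kit, Slc32a1, Nxph1 and Gad2, so the mean joins members that differ in direction. Over the 10 libraries it ran from -0.48 (Slc6a5) to 0.80 (Sorcs3), with Slc32a1 at 0.51 and Kit at 0.13, and was also negative for Gad2 and Lypd6.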

How the data were processed

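Per the labels' protocols, 500 ng of RNA depleted of ribosomal RNA went into directional libraries with 13 amplification cycles, read as pairs of 100 bases. The submitters' processing notes name FastQC 0.11.9, STAR 2.7.10a and the genome build GRCm39 (mm39). The annotation release and any trimming are not given in the sources used here. The authors deposited raw gene counts in STAR's layout, without normalization. The counts on the opposite strand were used, since 5.21% to 6.47% of gene reads lay on the other strand. Reads without a gene (44.7% to 54.6%) and multimapping reads (4.08% to 7.01%) stayed out. Symbols, exon lengths and GC content came from the GENCODE M21 annotation of GRCm38, which is not the files' build, and 55141 of 55401 identifiers matched. No pair of libraries held identical counts.

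All 12 libraries entered 1 quasi-likelihood fit in edgeR 4.0.16 (R 4.3.3) with TMM scaling, filterByExpr, a coefficient for each group and no other term. The tests are two-sided, with Benjamini-Hochberg adjustment over 19378 genes and a threshold of 0.05. Intervals are at 95%, and standard errors derive from the F statistic. Log2 CPM used a prior count of 2. Exact permutation tests ran over 70 assignments of mice. The fit was tested on simulated data. No animal number stands in 2 groups, so nothing was paired. Each mouse gave 1 library, so the spread between libraries includes that between animals. The alternatives were DESeq2 1.42.0, its size factors, no filter, counts without strand, 2 groups at a time, quality weights in limma 3.58.1, a covariate for Xist above 10 CPM (WT DMSO 425 and 426), leaving out each library, and leaving out 409 and 411. Leaving out 410 as well was added after the data were seen. The members and gene lists were chosen with earlier results of these data known. All 9 members are named. Of the other lists, a gene is named if called, and otherwise if among the 2 with the smallest unadjusted p. Likeness was ranked among genes with a mean of at least 5 CPM. The 5 most alike genes were to be named in each set, and 1 of them is not reported here. No genome of the files' build was used here.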

Additional observations from a re-analysis of the deposited data

Results flagged for a closer look

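In 27 groups of 4 values (9 genes in 3 groups), 3 had 1 library far from the other 3 by Dixon's test at 95%, where chance gives about 1.35. Gad1 in WT DMSO library 413 was at 344.1 CPM, below the next value of 369.9 CPM, because the other 3 mice lay so close together. Kit in the same library was at 176.0 CPM, below the next value of 206.4 CPM. Nxph1 in Het DMSO library 411 was at 50.62 CPM, above the next value of 19.73 CPM.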

How the results depend on the processing

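The count of members called was 0 of 9 in each comparison under all 21 alternatives, and the smallest adjusted p of any member was 0.341 (edgeR, Gad1, Het DMSO versus WT DMSO, without library 420). Of 567 member values under alternatives, 504 kept their sign and 63 did not, and 17 of 27 member results changed sign in at least 1 alternative. No paired analysis was possible because the labels give no number that recurs between groups. For Het Hit 2 versus Het DMSO, 0 genes were called under every alternative. Where a value below moved or changed sign, the cause was not tested. Over all genes, the number called for Het DMSO versus WT DMSO was 1, and it was 43 with DESeq2, 0 with the 2 groups alone, 98 with quality weights, 18 without 409 and 411 and 84 without 409, 410 and 411, and 0 to 9 leaving out 1 library at a time. Over all genes, the number called for Het Hit 2 versus WT DMSO was 1, and it was 24 with DESeq2, 4 without a filter, 2 without strand, 54 with the 2 groups alone, 221 with quality weights, 90 without 409 and 411, 109 without 409, 410 and 411 and 0 with the Xist covariate, and 0 to 14 leaving out 1 library at a time. The members' median for Het DMSO versus WT DMSO was -0.15 with quality weights, -0.16 without 409 and 411 and -0.16 without 409, 410 and 411, and -0.21 to 0.13 leaving out 1 library. The members' median for Het Hit 2 versus Het DMSO was 0.096 with quality weights, 0.12 without 409 and 411 and 0.091 without 409, 410 and 411, and -0.098 to 0.059 leaving out 1 library. The members' median for Het Hit 2 versus WT DMSO was -0.14 with quality weights and -0.13 without 409, 410 and 411, and -0.14 to 0.061 leaving out 1 library. With quality weights, the log2 fold change for Het DMSO versus WT DMSO changed sign to -0.021 for Gad2, -0.45 for Glra3, -0.17 for Klhl1, -0.24 for Nxph1, -0.15 for Slc32a1 and -0.13 for Sorcs3. With quality weights, the log2 fold change for Het Hit 2 versus Het DMSO changed sign to 0.020 for Gabbr1, 0.15 for Gad2, 0.058 for Gjd2, 0.20 for Grm2, 0.059 for Nxph1, 0.013 for Slc12a5, 0.20 for Slc32a1, 0.14 for Sorcs3 and -0.044 for Tfap2b. With quality weights, the log2 fold change for Het Hit 2 versus WT DMSO changed sign to 0.032 for Lypd6 and -0.18 for Nxph1. Without 409 and 411, the log2 fold change for Het DMSO versus WT DMSO changed sign to -0.032 for Aldh5a1, -0.087 for Gad2, -1.30 for Glra3, -0.67 for Klhl1, -0.23 for Nxph1, -0.16 for Slc32a1, -0.28 for Slc6a11 and -0.10 for Sorcs3. Without 409 and 411, the log2 fold change for Het Hit 2 versus Het DMSO changed sign to 0.040 for Abat, 0.051 for Aldh5a1, 0.067 for Gabbr1, 0.32 for Gad2, 0.081 for Gjd2, 0.18 for Grm2, -0.11 for Kit, 0.23 for Nxph1, 0.024 for Slc12a5, 0.23 for Slc32a1, 0.12 for Sorcs3 and -0.17 for Tfap2b. Without 409, 410 and 411, the log2 fold change for Het DMSO versus WT DMSO changed sign to -0.023 for Aldh5a1, -0.079 for Gad2, -1.30 for Glra3, -0.66 for Klhl1, -0.22 for Nxph1, -0.16 for Slc32a1, -0.27 for Slc6a11 and -0.095 for Sorcs3. Without 409, 410 and 411, the log2 fold change for Het Hit 2 versus Het DMSO changed sign to 0.0099 for Aldh5a1, 0.059 for Gabbr1, 0.17 for Gad2, 0.026 for Gjd2, 0.22 for Grm2, 0.029 for Slc12a5, 0.21 for Slc32a1, 0.11 for Sorcs3 and -0.098 for Tfap2b. Without 409, 410 and 411, the log2 fold change for Het Hit 2 versus WT DMSO changed sign to -0.0091 for Abat, 0.069 for Lypd6 and -0.22 for Nxph1. With the Xist covariate, the log2 fold change for Het Hit 2 versus WT DMSO changed sign to 0.070 for Slc6a5. Leaving out 1 library at a time, log2 fold changes for Het DMSO versus WT DMSO crossed 0, running from -0.27 to 0.55 for Gad2, -1.43 to 3.39 for Glra3, -0.48 to 2.57 for Klhl1, -0.25 to 0.54 for Nxph1, -0.030 to 2.29 for Slc6a11, -0.21 to 0.34 for Slc6a5 and -0.038 to 0.24 for Sorcs3. Leaving out 1 library at a time, log2 fold changes for Het Hit 2 versus Het DMSO crossed 0, running from -0.028 to 0.13 for Gad1, -0.30 to 0.51 for Gad2, -0.092 to 0.53 for Kit, -0.56 to 0.26 for Nxph1, -0.21 to 0.012 for Slc32a1, -0.37 to 0.18 for Slc6a5, -0.21 to 0.059 for Sorcs3 and -0.11 to 0.30 for Tfap2b. Leaving out 1 library at a time, log2 fold changes for Het Hit 2 versus WT DMSO crossed 0, running from -0.017 to 0.17 for Abat, -0.20 to 0.058 for Lypd6, -0.22 to 0.15 for Nxph1, -0.22 to 0.097 for Slc6a5 and -0.0076 to 0.062 for Sorcs3.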
